A study of Mus musculus with 18 samples.

Results

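Liver RNA was examined for 10 genes that mark leukocytes in general and myeloid cells in particular, chosen by name from the 16245 genes of the liver count table. They were Ptprc, Cd68, Itgam, Itgb2, Lyz2, Cd52, Tyrobp, Fcer1g, Laptm5 and Coro1a, and all 10 were measured in every mouse. The 10 genes and the gene lists below were chosen with earlier results of these data known. Shares over all genes stand beside their counts as a description. The livers came from 18 wild-type C57BL/6 mice (males of the C57BL/6J background in the study's methods) that were moved at 8 weeks of age to a NASH diet, which drives fatty liver with inflammation and fibrosis, and to housing at about 29 °C. Vehicle mice, GDF15 mice and pair-fed (PairFed) mice numbered 6 each, and all of them shared the diet, the temperature and single housing. GDF15 mice received recombinant GDF15, a circulating stress cytokine that reduces food intake, by daily subcutaneous injection, at a dose that the labels do not tie to individual mice. PairFed mice had their daily ration set by the intake of the GDF15 group a day earlier, so that GDF15 against PairFed asks what differs when intake is matched.

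Leukocytes carry proteins that most other cells lack, and whole-liver RNA therefore holds their transcripts as a small share beside those of hepatocytes. In liver the most abundant myeloid cells are macrophages, which comprise the resident Kupffer cells and cells recruited from blood monocytes, and the recruited cells are known to accumulate in steatohepatitis. Several of the genes described here act in one chain, in which integrins and Fc or TREM-type receptors at the surface bind a target, small adaptors with an immunoreceptor tyrosine-based activation motif (ITAM) pass the signal to the kinase Syk, actin is rearranged for uptake, and lysosomes digest what was taken up.

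Because the 10 genes moved together, short stretches upstream of their RefSeq transcription starts (build GRCm38.p6) were inspected. The promoter table held 7 of the 10 genes, and Itgb2, Cd52 and Tyrobp were not among them. The letters GGAAGT, the core bound by ETS-family factors such as the myeloid regulator PU.1 (encoded by Spi1), were searched on both strands over 250 bases and were found for 3 of the 7 genes (Ptprc, Laptm5 and Lyz2, in 4 of the 9 promoters of the 7 genes), against 19.7% of all 32851 promoters. The Ptprc promoter windows overlap and share a match, which is therefore counted for each of them. The letters TGACTCA, the AP-1 motif, were found on either strand for 1 of the 7 genes (Cd68), against 4.46% of all promoters. The 2 motifs share no bases in these windows, and a match of letters is a description and not a binding site. The 3 stretches below are shown because they hold matches and overlap no annotated exon, with the matched letters in capitals. They lie on the minus strand at chr1:138175307-138175455 for Ptprc, chr10:117282322-117282422 for Lyz2 and chr11:69666171-69666320 for Cd68. The Ptprc stretch lies inside the annotated gene, between exons, and the other stretches lie outside their genes.
Ptprc: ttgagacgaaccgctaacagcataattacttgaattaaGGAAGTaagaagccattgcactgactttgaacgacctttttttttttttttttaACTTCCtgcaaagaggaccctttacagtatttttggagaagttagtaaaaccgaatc
Lyz2: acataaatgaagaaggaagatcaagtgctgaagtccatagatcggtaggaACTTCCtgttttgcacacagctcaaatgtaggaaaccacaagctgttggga
Cd68: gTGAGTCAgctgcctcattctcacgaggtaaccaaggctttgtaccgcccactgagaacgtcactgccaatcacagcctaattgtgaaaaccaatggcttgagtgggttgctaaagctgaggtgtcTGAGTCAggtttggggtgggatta

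Libraries held 16508864 to 35301853 estimated counts, and values below are counts divided by the DESeq2 size factor of the library (normalized counts) unless another scale is named. The liver label was checked with the hepatocyte product albumin (Alb), which averaged 1231856 ± 124742 (SD, n = 6) normalized counts in Vehicle livers. The 3 smallest PairFed libraries, replicates 1 to 3, held 17180057 to 17926397 counts, and the 3 largest, replicates 4 to 6, held 25047723 to 35301853. The labels name no batch, and this split is returned to below because it moved with the genes described here.

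All 10 genes were lower in GDF15 livers than in Vehicle livers (DESeq2 adjusted p from 4.49e-09 for Coro1a to 0.0311 for Itgam), where 17.5% of the 14667 genes tested were lower. The median fold change of the 10 was −0.87 on the log2 scale, a ratio of 0.549, and the median over all genes tested was 0.00. Only Lyz2 passed a fold change below −1 on the log2 scale as well, which 5.37% of genes tested did. Against PairFed livers 9 of the 10 genes were lower, where 13.8% of the 14353 genes tested were lower, with a median over the 10 of −0.74 (a ratio of 0.599). Itgam was the exception, and none of the 10 passed a fold change below −1, which 2.75% of genes tested did. Both comparisons use the same 6 GDF15 mice, so their values stand side by side and are not independent of each other.

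Between PairFed and Vehicle livers no difference was detected for any of the 10 genes, where 0% of the 16242 genes tested were called lower. The count was 0 with DESeq2, at an unadjusted p under 0.05 as well as after adjustment, and 0 with the quasi-likelihood test of edgeR at either threshold. With all 6 PairFed libraries, fold changes ran from −0.36 (Itgam, 95% interval −0.99 to 0.26) to 0.05 (Cd52, −0.32 to 0.42) on the log2 scale, with 7 of 10 below 0. For Coro1a, the most precise of the 10, the interval was −0.26 to 0.28. In whole tissue, fewer cells of a type and less RNA per cell cannot be told apart.

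**Figure D1:**
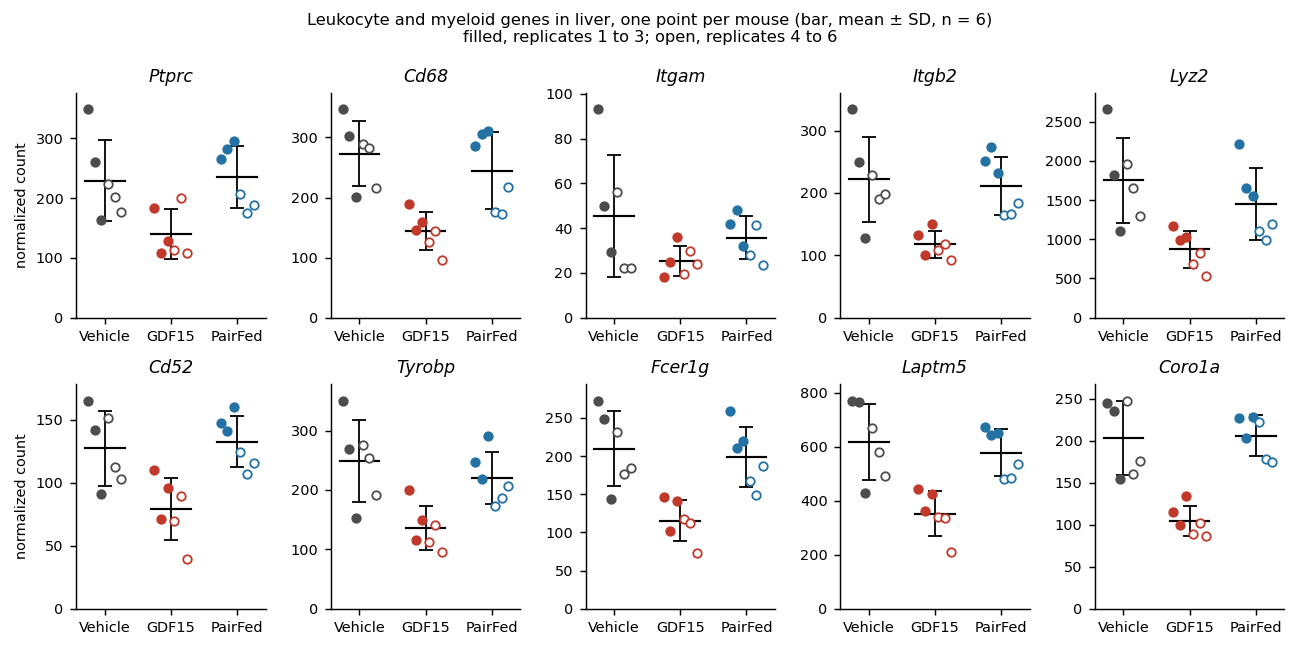
Normalized counts (linear vertical axes starting at 0) of each gene in each of 18 mice by group, with the mean and SD of 6 mice as bars, filled points for replicates 1 to 3 and open points for replicates 4 to 6. GDF15 means are the lowest of the 3 groups for all 10 genes, and in PairFed livers the filled points lie above the open points for 8 of the 10 genes.

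Ptprc encodes CD45, the transmembrane phosphatase found on nearly all leukocytes. Its normalized counts in Vehicle livers were 164 at the lowest, 213 at the median and 349 at the highest. In GDF15 livers they were 107, 120 and 200, and in PairFed livers 175, 236 and 295. The groups overlapped, with 4 of 6 GDF15 mice below every Vehicle mouse and GDF15 mice 1 and 5 inside the Vehicle range. Ptprc fell by 0.71 on the log2 scale against Vehicle (SE 0.21, adjusted p = 0.00296 by DESeq2) and by 0.75 against PairFed (SE 0.21, adjusted p = 0.00228).

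Itgam and Itgb2 encode the 2 chains of the integrin CD11b/CD18, by which myeloid cells adhere to vessel walls and take up complement-coated particles. Itgb2 is the shared beta chain of the leukocyte integrins. Its normalized counts were 128, 214 and 334 (lowest, median and highest) in Vehicle, 92.8, 114 and 150.5 in GDF15 and 164, 208 and 273 in PairFed livers. Every GDF15 mouse lay below every PairFed mouse, and 4 of 6 lay below every Vehicle mouse. Itgb2 fell by 0.92 against Vehicle (SE 0.20, adjusted p = 3.36e-05 by DESeq2) and by 0.84 against PairFed (SE 0.19, adjusted p = 0.000207), both on the log2 scale. Itgam, the alpha chain of that integrin, was the least abundant of the 10, with 15 to 103 estimated counts per library. Its normalized counts were 22.2, 39.55 and 93.0 in Vehicle, 18.2, 24.45 and 35.8 in GDF15 and 23.3, 36.6 and 48.0 in PairFed livers. The groups overlapped broadly, and Vehicle mouse 1 stood highest of all 18 mice. Against Vehicle, Itgam fell by 0.85 on the log2 scale (SE 0.33, adjusted p = 0.0311 by DESeq2). That call was lost when Vehicle mouse 1 was left out (log2 fold change −0.52, adjusted p = 0.181), and also without any of Vehicle 2 and 4 or GDF15 1, 2, 4 and 6, at adjusted p from 0.0520 to 0.0752. Against PairFed, the log2 fold change of Itgam was −0.49 (95% interval −1.13 to 0.15, adjusted p = 0.276), so no difference was detectable.

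Other chains and ligands of these integrins were compared from a list of 10 genes, of which 9 were tested. Of the 9, 7 were lower with GDF15 than with Vehicle and 6 were lower than with PairFed, with none higher. Itgax, the CD11c chain of CD18 integrins on macrophages and dendritic cells, averaged 140 ± 46.4 (SD, n = 6) normalized counts in Vehicle, 44.0 ± 16.9 in GDF15 and 121 ± 36.1 in PairFed livers. It fell by 1.66 against Vehicle and by 1.44 against PairFed on the log2 scale (DESeq2 adjusted p = 3.23e-08 and 2.91e-06). Itgal, the CD11a chain shared by lymphocytes and myeloid cells, fell (log2 fold changes −0.64 and −0.50, adjusted p = 0.00277 and 0.0274). Itgad, the CD11d chain, averaged 2.03 normalized counts in Vehicle and 0.385 in GDF15 livers, below a floor of 3 counts, and was not tested. Among the ligands and linkers, Icam1, which binds CD11a and CD11b integrins on endothelium, fell (log2 fold changes −0.73 and −0.46, adjusted p = 0.000413 and 0.0388), while Tln1, a talin present in most cells, had log2 fold changes of −0.09 and −0.10 and did not pass (adjusted p = 0.279 and 0.253).

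Tyrobp encodes DAP12 and Fcer1g encodes the common Fc receptor gamma chain, the ITAM adaptors through which TREM receptors and Fc receptors signal. The normalized counts of Tyrobp were 152, 261 and 350.4 (lowest, median and highest) in Vehicle, 95.2, 128 and 199 in GDF15 and 172, 212 and 291 in PairFed livers. In both comparisons 5 of 6 GDF15 mice lay below the whole other group, and GDF15 mouse 1 did not. Tyrobp fell by 0.87 against Vehicle (SE 0.20, adjusted p = 1.00e-04 by DESeq2) and by 0.69 against PairFed (SE 0.20, adjusted p = 0.00328) on the log2 scale. The normalized counts of Fcer1g were 144, 208 and 273 in Vehicle, 73.5, 115 and 146.5 in GDF15 and 148, 199 and 259 in PairFed livers. All GDF15 mice lay below all PairFed mice, and GDF15 mouse 1 alone overlapped the Vehicle range, above Vehicle mouse 3. Fcer1g fell by 0.86 (SE 0.18, adjusted p = 2.72e-05) and by 0.77 (SE 0.18, adjusted p = 0.000253) on the log2 scale.

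Receptors, kinases and related genes of ITAM signalling, inhibitory ones among them, were counted from a list. Of its 26 genes 24 were tested, and of these 17 were lower with GDF15 than with Vehicle and 11 lower than with PairFed, and none was higher. Syk, the kinase that docks on phosphorylated ITAMs, averaged 170.2 ± 33.8 (SD, n = 6) normalized counts in Vehicle, 94.3 ± 22.6 in GDF15 and 181 ± 33.6 in PairFed livers, and fell (log2 fold changes −0.85 and −0.93, DESeq2 adjusted p = 1.38e-05 and 2.05e-06). Trem2, a lipid-sensing receptor that signals through DAP12, fell (log2 fold changes −1.52 and −1.24, adjusted p = 2.85e-06 and 0.000241). Sirpa, an inhibitory receptor that restrains phagocytosis, fell (log2 fold changes −1.22 and −1.05, adjusted p = 2.30e-09 and 5.15e-07). Hcst, which encodes the related adaptor DAP10 without an ITAM, averaged 9.18 normalized counts in Vehicle and 8.97 in GDF15 livers and did not pass (adjusted p = 0.905 and 0.889). Lyn, a Src-family kinase, had log2 fold changes of −0.01 and 0.05 (adjusted p = 0.932 and 0.654), and Fcgr2b, the inhibitory Fc receptor that liver sinusoidal endothelium also expresses, 0.30 and −0.08 (adjusted p = 0.144 and 0.765).

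Cd68, Lyz2 and Laptm5 encode proteins of lysosomes or of phagocyte granules. Cd68 is a lysosomal glycoprotein used to stain macrophages, and its normalized counts were 201, 286 and 347 (lowest, median and highest) in Vehicle, 96.4, 145 and 190 in GDF15 and 172, 252 and 311 in PairFed livers. Every GDF15 mouse lay below every Vehicle mouse, and 5 of 6 below every PairFed mouse. Cd68 fell by 0.92 against Vehicle (SE 0.19, adjusted p = 9.86e-06 by DESeq2) and by 0.76 against PairFed (SE 0.19, adjusted p = 0.000468) on the log2 scale. Lyz2, the lysozyme of macrophages and granulocytes, was the most abundant of the 10, at 1110, 1741 and 2657 normalized counts in Vehicle, 533, 904 and 1171 in GDF15 and 986, 1369 and 2218 in PairFed livers. GDF15 mouse 1 lay inside the Vehicle range, and GDF15 mice 1 to 3 reached into the PairFed range. Lyz2 fell by 1.01 (SE 0.22, adjusted p = 7.59e-05) and by 0.73 (SE 0.22, adjusted p = 0.00655) on the log2 scale, and its reads may be shared with the near-identical Lyz1. Its place beyond −1 against Vehicle depended on single mice, since the number of the 10 genes beyond −1 was 0 without any of Vehicle 1, 2 and 4 or GDF15 4, 5 and 6, 2 without Vehicle 5, and 3 without any of Vehicle 3, GDF15 1 and GDF15 3. Laptm5, a lysosomal membrane protein of blood cells that directs antigen receptors to degradation, counted 428, 624 and 770.3 in Vehicle, 211, 350.4 and 444 in GDF15 and 479, 590.5 and 673 in PairFed livers. It separated GDF15 from every PairFed mouse and left GDF15 mouse 1 in the Vehicle range, and it fell by 0.81 and by 0.71 on the log2 scale (SE 0.17 for both, adjusted p = 2.35e-05 and 0.000322).

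Of 12 other lysosomal and phagocyte oxidase genes, 10 were lower with GDF15 than with Vehicle and 8 lower than with PairFed, and 1 was higher in each. The gene that rose was Lamp2, a lysosomal membrane protein of most cells, by 0.16 and 0.15 on the log2 scale (DESeq2 adjusted p = 0.000794 and 0.00240), while its partner Lamp1 fell (log2 fold changes −0.26 and −0.25, adjusted p = 2.97e-07 and 5.60e-07). Lgmn, a lysosomal protease abundant in macrophages, fell (log2 fold changes −0.58 and −0.52, adjusted p = 0.000158 and 0.00104).

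Coro1a and Cd52 complete the set, as an actin-binding protein of leukocytes and a small glycosylphosphatidylinositol-anchored surface peptide found mainly on lymphocytes and monocytes. Coro1a normalized counts were 155, 205 and 248 (lowest, median and highest) in Vehicle, 86.8, 101 and 134 in GDF15 and 174, 213 and 228 in PairFed livers. No GDF15 mouse reached the range of either other group. Coro1a was the only gene of the 10 with such separation from both, which held for 3.39% of the 16245 genes. It fell by 0.96 against Vehicle (SE 0.15, adjusted p = 4.49e-09 by DESeq2) and by 0.97 against PairFed (SE 0.15, adjusted p = 3.62e-09) on the log2 scale. Cd52 counted 90.8, 127 and 165 in Vehicle, 39.8, 80.45 and 110.1 in GDF15 and 107, 133 and 160.2 in PairFed livers, with GDF15 mice 1 and 3 inside the Vehicle range and mouse 1 inside the PairFed range. It fell by 0.68 and by 0.73 (SE 0.20 for both, adjusted p = 0.00315 and 0.00173) on the log2 scale.

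Counted over the set, GDF15 lay wholly below Vehicle for 2 genes (Cd68 and Coro1a), against 6.32% of all genes, and wholly below PairFed for 4 genes (Itgb2, Fcer1g, Laptm5 and Coro1a), against 4.69% of all genes. Of 12 other leukocyte actin regulators, 9 were lower with GDF15 than with Vehicle and 8 lower than with PairFed, with none higher. Lcp1 (L-plastin), an actin bundler of blood cells, was among those that did not pass, at 1819 ± 76.9 (SD, n = 6) normalized counts in Vehicle and 1806 ± 199.9 in GDF15 livers (DESeq2 log2 fold change −0.01, adjusted p = 0.938). Ptprc averaged 229 ± 67.7 in Vehicle livers, so Lcp1 was more abundant and varied less relative to its mean. Whether Lcp1 RNA in whole liver came mainly from leukocytes was not tested. Of 9 other leukocyte surface proteins, 6 were lower than Vehicle and 8 lower than PairFed, with none higher, and Cd44, a hyaluronan receptor of activated leukocytes and other cells, fell (log2 fold changes −1.21 and −0.997, adjusted p = 1.06e-07 and 2.31e-05).

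**Figure D2:**
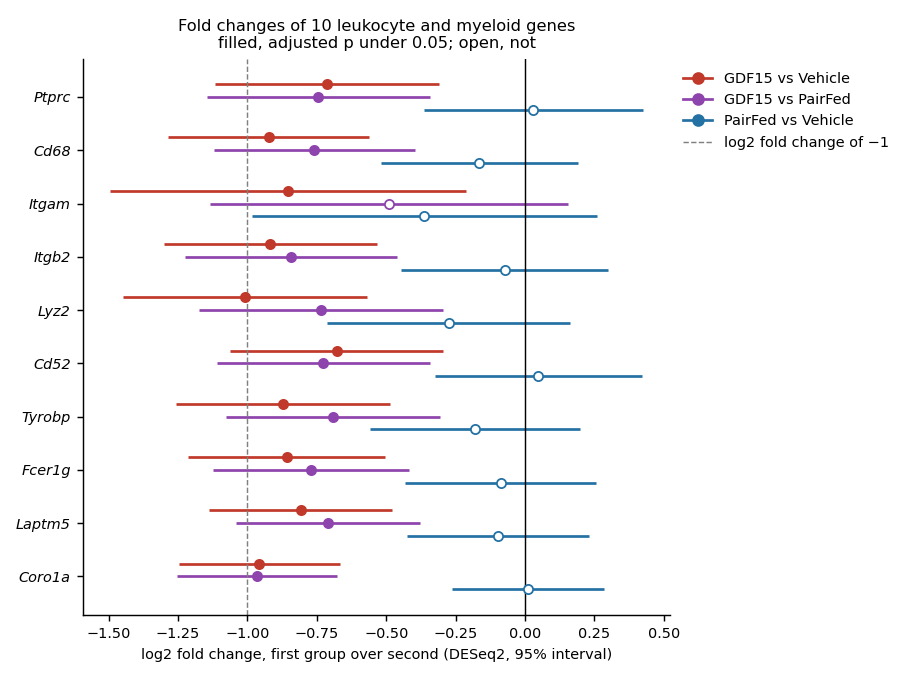
DESeq2 log2 fold changes (horizontal axis) of the 10 genes in 3 comparisons, with 95% intervals as lines, filled points where the adjusted p is under 0.05 and a dashed line at −1. All 10 intervals of GDF15 against Vehicle and 9 of 10 against PairFed end below 0, and the 10 intervals of PairFed against Vehicle span 0.

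Levels of different genes were compared per length, as normalized counts per kilobase of the principal transcript. In Vehicle livers the order was Lyz2 (1331 ± 415, SD, n = 6), Tyrobp (441 ± 123), Fcer1g (311 ± 72.7), Cd52 (248 ± 57.4), Laptm5 (237.5 ± 54.5), Cd68 (222 ± 44.6), Coro1a (116 ± 25.15), Itgb2 (74.6 ± 23.2), Ptprc (48.8 ± 14.4) and Itgam (9.77 ± 5.88). Neighbours from Fcer1g to Cd68 differed by less than the larger of their SDs between mice. The genes were measured in the same mice and varied together, so these SDs cannot say whether the order holds within a mouse. That order was not tested and is not read here. Transcripts of Cd52, Tyrobp and Fcer1g are 514, 564 and 674 bases long, and the annotated length overstates the part of such short transcripts that sequencing fragments can cover.

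To ask whether the other genes moved by the same factor as CD45, the table was refitted with each library scaled to its Ptprc count. On this scale 0 of the other 9 genes passed the test between GDF15 and Vehicle (DESeq2 adjusted p from 0.272 to 0.990, 0 at an unadjusted p under 0.05), where 64.1% of all genes did in either direction. Their log2 fold changes relative to Ptprc lay between −0.24 (Lyz2, 95% interval −0.62 to 0.14) and 0.03 (Cd52, −0.34 to 0.40). Against PairFed the count was also 0, with relative fold changes of −0.20 to 0.29 and 65.2% of all genes called, and between PairFed and Vehicle it was 0, with 0% of all genes called. These intervals still allow a gene to differ from Ptprc by the sizes they span. Ptprc itself fell with GDF15, so this scale raises genes that did not change. The shares of 64.1% and 65.2% follow largely from that choice of reference and are no yardstick for the counts of 0. With Ptprc, Cd53, Lcp1 and Hcls1 summed as the reference instead, 8 of the 9 genes were lower in each GDF15 comparison, where 9.61% of genes tested were lower against Vehicle and 6.38% against PairFed. Lcp1 made up 69.1% to 84.4% of that sum. No difference was detected for Lcp1 itself (log2 fold changes −0.01 against Vehicle and −0.05 against PairFed, DESeq2 adjusted p = 0.938 and 0.653). Scaling to the sum is therefore largely scaling to a gene without a detected change. The count of 8 is close to a repeat of the main fit, and nothing is read from it about leukocyte content.

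Mice differed along the whole set. Vehicle mouse 1 was the highest of its group for 9 of 10 genes and Vehicle mouse 3 the lowest for 9. GDF15 mouse 6 was the lowest of its group for 9 genes, and GDF15 mouse 1 the highest for 6. Over the 45 pairs of genes, the correlation across 18 mice of deviations from group means had a median r of 0.801 (range 0.415 to 0.947), a description in which the points share their libraries and size factors. Laptm5 followed the others most closely (median r 0.877) and Itgam least (0.483).

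**Figure D3:**
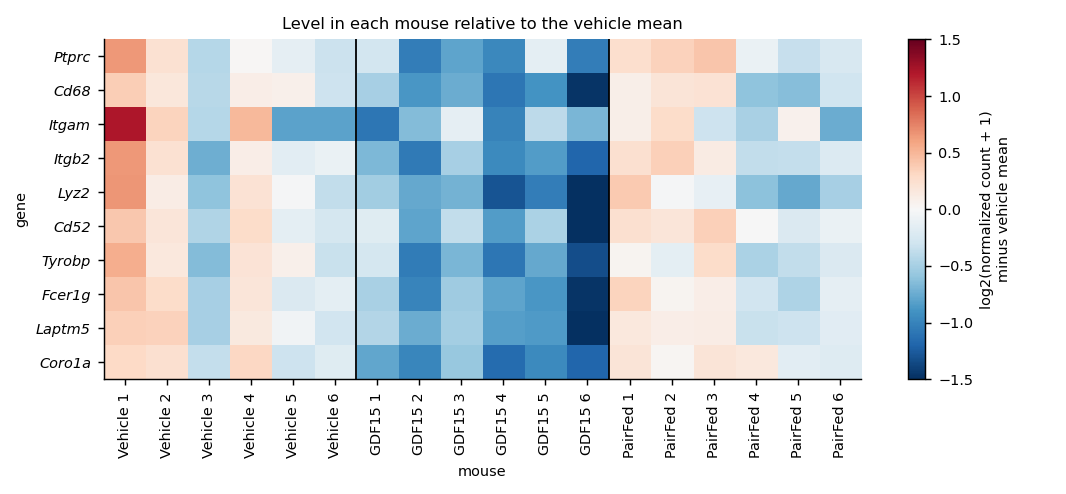
Log2(normalized count + 1) of each gene (rows) in each mouse (columns) minus the mean of 6 Vehicle mice, with blue below and red above that mean. The column of GDF15 mouse 6 is the darkest blue, Vehicle mouse 3 is blue for all 10 genes, and PairFed mice 4 to 6 are paler or bluer than PairFed mice 1 to 3 for most genes.

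In PairFed livers, replicates 1 to 3 lay above replicates 4 to 6 without overlap for 8 of the 10 genes (all but Itgam and Coro1a), a pattern that 9.22% of all genes had. In GDF15 livers this held for 3 of the 10 (Cd68, Lyz2 and Laptm5, 10.6% of all genes) and in Vehicle livers for 0 (3.93% of all genes). Library size moved with this split in the PairFed group, as given above. With only the 3 smaller PairFed libraries as the reference, 9 genes were lower with GDF15 (13.4% of all genes tested in that fit), 5 of them beyond −1 on the log2 scale (4.29%). With only the 3 larger, where 7.48% of genes tested were lower, 1 gene was lower (Coro1a, log2 fold change −0.87, DESeq2 adjusted p = 0.000114), and the other fold changes were −0.28 to −0.54 with adjusted p from 0.0701 to 0.709. Within replicates 1 to 3 of both groups 8 genes were lower (Itgam and Tyrobp did not pass, 11.5% of all genes tested were lower), and within replicates 4 to 6 also 8 (Itgam and Ptprc did not pass, 8.41%). After every library was thinned to the smallest total, 9 genes were lower with GDF15 than with PairFed (13.2% of all genes tested). Against Vehicle, 9 genes were lower within replicates 1 to 3 (Cd52 did not pass, 11.6% of all genes tested were lower) and 8 within replicates 4 to 6 (Itgam and Ptprc did not pass, 10.2%). PairFed against Vehicle moved with the same split. The 10 log2 fold changes were −0.17 to 0.29 with only the 3 smaller PairFed libraries, 1 of them below 0. They were −0.69 to −0.09 with only the 3 larger, 10 of them below 0. DESeq2 called 0 of the 10 in either fit. Over all genes and both directions it called 0 with the 3 smaller libraries and 31 with the 3 larger.

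The genes whose deviations from group means followed the mean of the set most closely were sought among 10874 genes averaging 50 or more normalized counts, over 18 mice. They were Adgre1 (r = 0.956), which encodes the macrophage antigen F4/80, C1qc (0.955), a complement chain made by macrophages, Cap1 (0.947), an actin-regulating protein of most cells, Cd5l (0.945), a secreted macrophage protein, and Myo1f (0.943), a leukocyte myosin. The median r of the genes compared was −0.06. Against Vehicle, log2 fold changes were −0.65 for Adgre1, −0.56 for C1qc, −0.24 for Cap1, −0.43 for Cd5l and −1.15 for Myo1f, all past the DESeq2 threshold (adjusted p from 2.68e-05 to 0.0496). Against PairFed, Adgre1 did not pass (−0.40, adjusted p = 0.146).

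Marker lists of macrophage and monocyte populations were counted beside the set. Of 8 monocyte genes 5 were lower and 1 higher with GDF15 than with Vehicle (4 and 1 against PairFed). Cx3cr1, a chemokine receptor of monocytes and macrophages, fell (log2 fold changes −1.76 and −1.30, DESeq2 adjusted p = 2.30e-07 and 0.000268), and the gene that rose was Fn1, a fibronectin that hepatocytes also make (0.44 and 0.37, adjusted p = 6.75e-05 and 0.00129). Of 8 lipid-associated macrophage genes 6 were lower and 1 higher than Vehicle (5 and 0 against PairFed). Spp1, which bile duct cells make as well, fell (log2 fold changes −1.99 and −1.36, adjusted p = 6.60e-07 and 0.00133), and Fabp5, a fatty acid carrier, rose by 1.44 against Vehicle only (adjusted p = 0.0121, against 0.138 for PairFed, the difference between the comparisons not being tested). The groups overlapped for Fabp5, which ranged from 400 to 3199 normalized counts in GDF15 and from 428 to 929 in Vehicle livers. Of 10 Kupffer cell genes 5 were lower than Vehicle and 4 lower than PairFed, with none higher. Those lower than Vehicle were C1qa, C1qb, C1qc, Adgre1 and Cd5l. No difference from Vehicle was detected for Clec4f, Vsig4, Timd4, Marco and Folr2 (log2 fold changes −0.06 to 1.03, DESeq2 adjusted p from 0.0646 to 0.891). C1qb, a complement chain, fell (log2 fold changes −0.72 and −0.59, adjusted p = 0.000801 and 0.00793), while Clec4f, a lectin restricted to Kupffer cells, averaged 1072 ± 246 (SD, n = 6) normalized counts in Vehicle and 1190 ± 343 in GDF15 livers (log2 fold change 0.15, adjusted p = 0.550). Of 13 myeloid regulators 10 were lower and 1 higher than Vehicle (8 and 1 against PairFed). Spi1, which encodes PU.1, fell (log2 fold changes −0.71 and −0.74, adjusted p = 0.00423 and 0.00319) and Csf1r, the receptor that macrophages need to survive, (log2 fold changes −0.55 and −0.44, adjusted p = 0.00827 and 0.0451), while Cebpb, which hepatocytes also express, rose by 0.47 against Vehicle and by 0.73 against PairFed (adjusted p = 0.0223 and 0.000280). Cebpb also overlapped, ranging from 2069 to 5514 normalized counts in GDF15 and from 2073.5 to 2494 in Vehicle livers.

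Markers of lymphoid cells, dendritic cells and granulocytes were summed over each list. The neutrophil genes reached 94.4 to 175 normalized counts in Vehicle and 78.5 to 125 in GDF15 livers, T cell genes 58.2 to 128 and 46.2 to 120, and natural killer cell genes 49.95 to 107.5 and 32.5 to 74.7. Dendritic cell genes summed to 200.2 to 334 in Vehicle and 177 to 259 in GDF15 livers, and B and plasma cell genes to 161 to 457 in Vehicle, 105 to 250 in GDF15 and 188 to 556 in PairFed livers. Among 7 neutrophil genes tested 1 was lower with GDF15 than with Vehicle (Csf3r, by 0.81 on the log2 scale, DESeq2 adjusted p = 0.00362), and among 8 dendritic cell genes 2 were lower. Of 11 T cell genes 1 was higher (Cd4, which macrophages and Kupffer cells can also express, by 0.97, adjusted p = 0.0268), and of 8 natural killer cell genes none passed (edgeR also 0). Median log2 fold changes against Vehicle were 0.10 for the T cell and −0.50 for the natural killer cell list. Only 3 of 11 T cell, 2 of 9 natural killer cell and 3 of 9 neutrophil genes averaged 10 or more normalized counts. Few calls in these lists therefore cannot show that these cells were unchanged. Of 8 B and plasma cell genes 1 was lower than Vehicle and 4 lower than PairFed (3 by edgeR), where 13.8% of all genes tested were lower than PairFed. Their median log2 fold changes were −0.68 against Vehicle and −0.85 against PairFed. The neutrophil, dendritic cell and B cell counts against Vehicle rest on 1 or 2 genes each. They lie near the 17.5% of all genes tested that were lower, and nothing is read from them about these lists.

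Markers of hepatocytes, stellate cells and cholangiocytes moved with GDF15 as well. Of 10 hepatocyte genes 8 were higher than with Vehicle (15.8% of all genes tested) and 8 higher than with PairFed (13.3%), and their sum was 2306002 to 2689018 normalized counts in GDF15 livers against 1594297 to 2031125 in Vehicle and 1468146 to 2193818 in PairFed livers. Of 8 stellate cell genes 8 were lower than Vehicle and 7 lower than PairFed, with sums of 4100 to 6384 in GDF15, 6942 to 9583 in Vehicle and 6832 to 8776 in PairFed livers. Of 6 cholangiocyte genes 6 were lower than Vehicle and 2 lower than PairFed, 1 of the 2 being Spp1, also counted among the lipid-associated macrophage genes. Over all genes tested, 17.5% were lower than Vehicle and 13.8% lower than PairFed. The part of these shifts in the fall of the leukocyte genes was not tested. Of 8 sinusoidal endothelial genes 1 was lower (Lyve1) and 1 higher (Clec4g) than Vehicle, near the shares of all genes, and nothing is read from these counts. Of 6 red cell and platelet genes 1 was lower with GDF15 than with Vehicle, also near that share, and none differed from PairFed (edgeR also 0). The lower one was the platelet gene Pf4, which averaged 30.0 ± 7.38 (SD, n = 6) normalized counts in Vehicle, 15.0 ± 6.41 in GDF15 and 22.3 ± 5.52 in PairFed livers (log2 fold change −0.97, adjusted p = 0.00236 by DESeq2). For hemoglobin no difference was detected, and the sum of Hbb-bt and Hba-a1 was 7459 ± 3970.0 (SD, n = 6) in GDF15, 8623 ± 4001 in Vehicle and 8179 ± 1342 in PairFed livers (exact two-sided permutation p = 0.606, 0.762 and 0.801 for GDF15 against Vehicle, GDF15 against PairFed and PairFed against Vehicle, each 0.801 after adjustment over 6 tests). Of 8 housekeeping genes 3 were lower (Actb, Gapdh and Hprt) and 1 higher (Rplp0) than Vehicle, with a median log2 fold change of −0.10. In PairFed against Vehicle no gene of any list passed (DESeq2 and edgeR both 0).

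**Figure D4:**
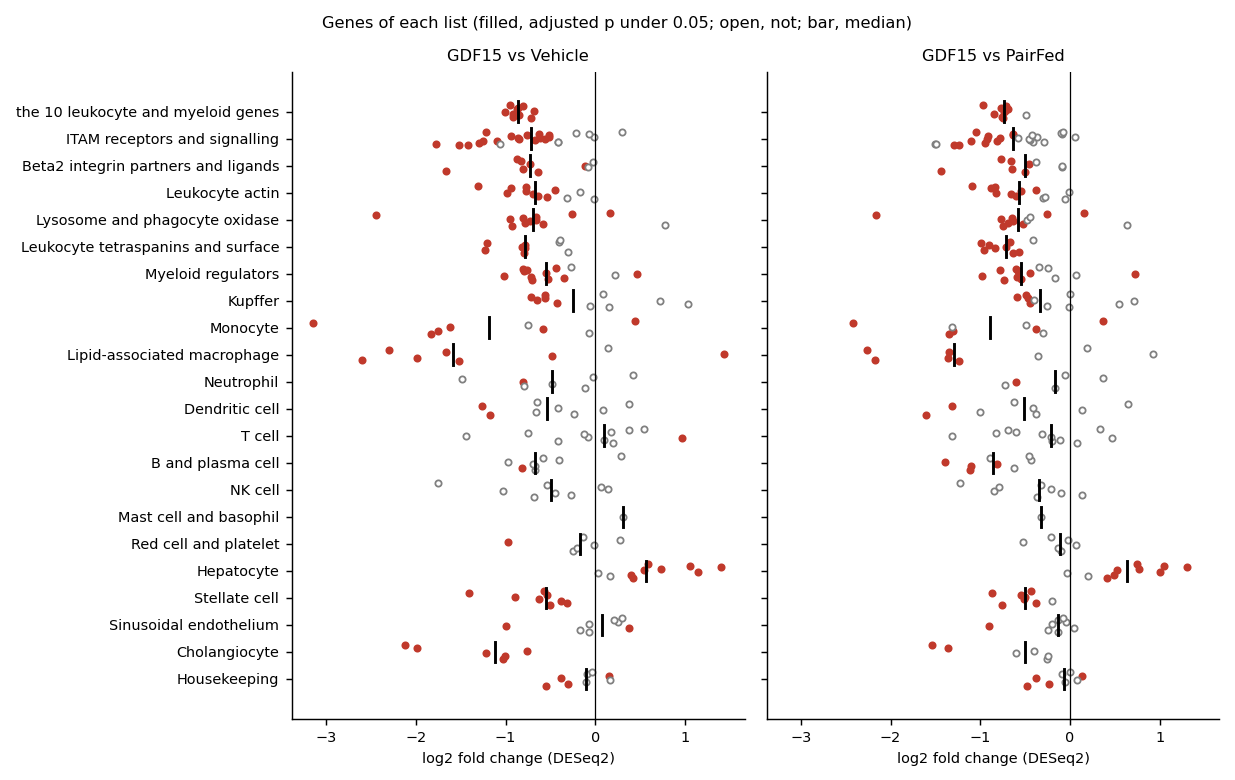
DESeq2 log2 fold changes (horizontal axes) of the tested genes of each list (rows) for GDF15 against Vehicle and GDF15 against PairFed, filled where the adjusted p is under 0.05, with the list median as a bar. Medians of the 10 leukocyte and myeloid genes are −0.87 and −0.74, and 8 filled points of the hepatocyte list lie above 0 in each panel.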

How the data were processed

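Liver RNA from 6 mice per group was sequenced with a directional library kit. Per the labels and the study's methods, the authors trimmed reads with Trim Galore and quantified transcripts with Salmon on mm10. The deposited table holds estimated counts per gene symbol as whole numbers, unscaled, with no row total under 5. All 18 columns were used, with groups and replicate numbers from sample titles. Salmon divides reads among near-identical transcripts, so Lyz2 and Lyz1 are uncertain individually.

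Counts were fitted with DESeq2 1.42.0 (R 4.3.3) over all 18 samples with group as the factor, median-of-ratios size factors, Wald tests, independent filtering and Benjamini-Hochberg adjustment over all genes. A call needed an adjusted p under 0.05, and a second count an absolute log2 fold change above 1. edgeR 4.0.16 was the alternative. Further alternatives were a replicate block, filters, thinning, fewer samples and leaving out each mouse, and fits with 3 of the 6 PairFed libraries, chosen after seeing the data. The fits were tested on simulated data. Members, gene lists and the naming rule (all 10 members, fixed partners, up to 3 most abundant genes per list, and the 5 genes most correlated with the set) were chosen with earlier results of these data known. The list of myeloid regulators leaves out 1 gene that is not reported here. Other genes named from a list were chosen after seeing their values. Totals of 16508864 to 35301853 counts per library set the precision. A floor of 3 counts was used, which covers counting error only, since reads carry no molecular identifiers. Coordinates and lengths are from GENCODE vM21 (GRCm38) and sequences from RefSeq. Samples were taken as separate mice, and p-values measure the spread between these samples.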

Additional observations from a re-analysis of the deposited data

How the results depend on the processing

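No called value of the 10 genes changed direction under any alternative. The number of the 10 called lower was 0 in both GDF15 comparisons when the Wald test itself asked for a log2 fold change beyond 1, and 1 against PairFed with only the 3 larger PairFed libraries. Leaving out each mouse gave 9 to 10 against Vehicle, 9 against PairFed and 0 for PairFed against Vehicle. The number beyond −1 on the log2 scale ranged from 0 to 3 against Vehicle and from 0 to 1 against PairFed over these fits. It was 4 against Vehicle and 1 against PairFed within replicates 4 to 6, 0 against Vehicle after thinning, and 5 against PairFed with the 3 smaller PairFed libraries. Of these alternative fits, the share of all genes beyond −1 was counted only for the 3 smaller PairFed libraries (4.29%). The other counts beyond −1 are therefore not read as results about the 10 genes. For the fits without a mouse and the block fit below, the share of all genes called was not counted either. Relative to the sum of Ptprc, Cd53, Lcp1 and Hcls1, 8 genes were lower against Vehicle and 8 against PairFed, and relative to Ptprc alone the count was 0 in every fit that left out a mouse. The sum is largely Lcp1, for which no difference was detected, while Ptprc itself fell, so these counts differ by the choice of reference. The cause of the other shifts was not tested. Mice with the same number did not deviate together throughout (r from −0.219 to 0.266 for GDF15 and Vehicle, −0.164 to 0.177 for GDF15 and PairFed and −0.00676 to 0.520 for PairFed and Vehicle), and 1, 2 and 1 of 6 numbers correlated best with their own number. With the replicate number as a block, 9, 9 and 0 genes were called, the loss against Vehicle being Itgam (adjusted p = 0.0705), which was also lost when only the 12 samples compared were fitted (0.0514) and after thinning (0.0567). By edgeR 3 rather than 5 monocyte genes were lower than Vehicle, and 0 rather than 1 neutrophil gene and 1 rather than 2 cholangiocyte genes were lower than PairFed. Itgam had the fewest counts of the 10 genes, 15 to 103 per library.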
